A study of Mus musculus with 15 samples.

Results

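The transcripts described here code for the NF-kB transcription factor subunits (Nfkb1, Nfkb2, Rel, Rela and Relb) and for inhibitors of the pathway, several of which NF-kB itself induces (Nfkbia, Nfkbib, Nfkbie, Nfkbiz and Tnfaip3). The 10 genes were taken by name, by matching the Ensembl identifiers of the count tables to gene symbols, out of 41388 genes. All 10 passed the filter on low counts, which kept 13904 genes. RNA sequencing had been done on A20 cells, a B-cell lymphoma line of BALB/c mice, to ask which transcripts differ when the transcription factor Foxp1 is disrupted. The 5 lines were the wild-type parental line and 4 lines in which CRISPR had left a mutation in Foxp1, in exon 6 for clones E6.1 and E6.2 and in exon 7 for clones E7.1 and E7.2, with no treatment named in the labels. Each line had 3 libraries, 15 in all, grown from separate passages. Each CRISPR line is 1 clone with a frameshift of its own, grown by dilution from transfected cells that had been sorted for GFP, so a difference between a clone and the parental line cannot be told apart from a difference that the founding cell already had. The 4 comparisons with parental cells use the same 3 parental libraries.

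NF-kB proteins wait in the cytoplasm in resting cells, bound by IkB proteins such as the product of Nfkbia. In the canonical pathway, IkB kinase marks the IkB protein for destruction and frees dimers of p50 (from Nfkb1) with Rela or Rel. In the alternative pathway, p100 (from Nfkb2) is cut to p52, which enters the nucleus with Relb. Freed NF-kB raises the transcription of its own inhibitors, which closes the loop, and in mature B cells both arms carry survival signals from the B-cell receptor, CD40 and BAFF receptor. The protein made from Tnfaip3, a ubiquitin-editing enzyme that damps the pathway, is also called A20 in the literature. That name has no connection with the A20 lymphoma line.

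Because several of these genes are known as NF-kB targets themselves, their proximal promoters were searched for the 10-base kappaB consensus, the letters that NF-kB dimers bind, on both strands. RefSeq promoter windows on GRCm38.p6, from 250 bases before to 50 bases after each annotated start, were at hand for 7 of the 10 genes. The consensus was found in windows of 5 of them, Nfkb2, Nfkbia, Nfkbie, Rel and Tnfaip3, and not in those of Nfkbib and Rela. Of all 32851 windows, 4.51% held it. The lines below show 1 match for each of the first 4 genes and 2 for Tnfaip3, each with 10 flanking bases, written 5′ to 3′ on the strand of the gene, and the capitals mark the matched bases. A match is a description of the letters and not evidence that NF-kB binds there in these cells. In order, they are at chr12:55492657-55492686 (minus strand), chr17:45555584-45555613 (plus), chr11:23771042-23771071 (minus), chr19:46304688-46304717 (plus), chr10:19015516-19015545 (minus) and chr10:19015403-19015432 (minus).
Nfkbia: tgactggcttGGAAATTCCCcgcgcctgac
Nfkbie: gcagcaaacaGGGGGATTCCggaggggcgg
Rel: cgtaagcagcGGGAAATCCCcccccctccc
Nfkb2: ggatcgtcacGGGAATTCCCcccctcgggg
Tnfaip3 distal: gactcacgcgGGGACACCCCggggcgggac
Tnfaip3 proximal: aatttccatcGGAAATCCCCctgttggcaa
The matched bases begin 29 bases before the RefSeq start of Nfkbia, 106 before that of Nfkbie, 92 before that of Rel, 39 before the first of the Nfkb2 starts, and 125 and 12 before that of Tnfaip3. Both Tnfaip3 stretches fall inside the gene as the count tables place it, since that annotation starts the gene further upstream. In Rel and Nfkb2 the consensus also matched 1 base further on, so those matches overlap, and the Nfkb2 windows held further matches. The forkhead motif GTAAACA, the core that Foxp proteins recognize, was in 0 of the 10 windows of these 7 genes on either strand and in 3.65% of all windows.

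Facts that bear on every value are as follows. Total counts per library were between 26328054 and 39181530. At this depth the floor of 3 counts is between 0.0751 and 0.118 CPM (read counts scaled to the library total with TMM factors), which covers counting error only, and the lowest count of any of the 10 genes in a library was 211. Foxp1 itself was lower in E7.1 (log2 fold change -1.29, SE 0.20, adjusted p = 0.00688) and in E7.2 (-1.69, SE 0.20, adjusted p = 0.00116) by edgeR's quasi-likelihood test, while in E6.1 (-0.41, SE 0.20, adjusted p = 0.765) and E6.2 (-0.39, SE 0.20, adjusted p = 0.417) it was not called. The Foxp1 call in E7.2 was lost in the 6 libraries compared alone (log2 fold change -1.69, adjusted p = 0.0607 by edgeR). A count over the whole gene does not read the mutated exon, so it does not check the exon 6 labels. The summed level of 7 B-cell markers was between 3447 and 4790.2 CPM in every library. Cd74 held the largest part of this sum, at 1975 to 3205 CPM, so the sum says little about the other markers. Ms4a1 was between 273 and 743, Ptprc between 439 and 826 and Cd79b between 180 and 328 CPM. Cd79a was between 51.6 and 229, Pax5 between 10.1 and 44.5 and Ebf1 between 10.2 and 24.1 CPM. Of these markers, 1 was called against parental cells, Ms4a1, which codes for CD20, lower in E6.2, where 1.17% of all genes were called. It was at 350 ± 66.8 against 658 ± 86.2 CPM (SD, n = 3 each, log2 fold change -0.91, adjusted p = 0.0227 by edgeR). That call was kept without the replicate 3 libraries of E6.2 and E7.2 (-0.98, adjusted p = 0.0146) and was lost in the 6 libraries compared alone (-0.91, adjusted p = 0.309 by edgeR) and without replicate 1 or 3 of the parental line or 1 of E6.2 (adjusted p between 0.063 and 0.11 by edgeR). Between E7.1 and E6.2, 2 of the 7 were called, Cd79a and Ms4a1, both higher in E7.1, against 16.9% of all genes. The part of this in the results for that pair was not tested. The summed level of 6 T-cell markers was at most 0.709 CPM, that of 6 stromal markers between 1.55 and 4.12 CPM, and that of 6 myeloid markers between 5.62 and 33.2 CPM. Of the stromal markers Pdgfrb was called lower in E7.1 (adjusted p = 0.0194 by edgeR), where 1.22% of all genes were called. Its level was 0.0284 ± 0.0299 CPM, under the floor of 3 counts, against 0.417 ± 0.158 CPM in parental cells (SD, n = 3 each). This call was lost in the 6 libraries compared alone (adjusted p = 0.0565 by edgeR) and without replicate 3 of the parental line or 1 or 2 of E7.1 (0.0661 to 0.087). Only 1 of the 6 T-cell markers (Cd4), 5 of the 6 myeloid and 3 of the 6 stromal markers passed the filter and could be called. Of those tested, no T-cell or myeloid marker was called in any clone against parental cells. In cultured cells measured in bulk, fewer expressing cells and less RNA per cell cannot be told apart.

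Some libraries stood apart from the others of their line. Replicate 3 of E6.2 and replicate 3 of E7.2 had the smallest TMM factors, 0.906 and 0.826, and were more than 1.5 times above both other libraries of their line for 15.8% and 15.1% of all genes tested, against 1.96% to 2.12% in the other lines. In replicate 3 of E7.2, 10.4% of counts were mitochondrial and the 50 most abundant genes took 27.1% of counts. Replicate 1 of E6.2 had a top-50 share of 27.2% and a mitochondrial share of 7.28%, and over all libraries the medians of these shares were 14.4% and 3.58%. The share above 1.5 times was worked out for replicate 3 of each line only, so replicates 1 and 2 were not held to it. Chi-square per gene, which measures how far the counts of 2 libraries differ, set replicate 1 of E6.2 apart from its line. It was 425 and 726 against replicates 2 and 3, and 294 between those. Within E7.2 it set replicate 3 apart, at 340 and 423, with 39.5 between replicates 1 and 2. A second fit left out the 2 libraries with the smallest TMM factors and kept replicate 1 of E6.2. The libraries left out are called the 2 divergent libraries below, although they were not alone in standing apart. This fit was chosen after seeing the data, and its values are given beside the results it moved.

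Among the subunits, transcripts of the alternative pathway's precursor gene were the most plentiful. In parental cells, Nfkb2 had 96.1 ± 9.76 CPM per kilobase of exon (SD, n = 3), followed by Nfkb1 (21.9 ± 0.843), Rel (16.0 ± 2.89), Rela (13.7 ± 1.95) and Relb (7.57 ± 1.65). The ranges of Rel and Rela overlapped, and the other neighbours in this order did not. Nfkb2 held 61.9% ± 1.64 (SD, n = 3) of the summed subunit level per kilobase in parental cells, and between 59.2% and 69.5% in all 15 libraries. Relb, its partner, held 4.85% ± 0.658 in parental cells, 6.52% ± 1.18 in E6.2 and 2.95% ± 0.794 in E7.1 (SD, n = 3 each). In E6.2 without its divergent library it was 5.85%. The Relb share in the E7.1 libraries, at most 3.84%, lay below every E6.2 and parental library, the lowest of which were at 5.65% and 4.09%, and overlapped the shares of E6.1 and E7.2, the lowest of which were at 3.8002% and 3.59%. Among the inhibitors in parental cells, Nfkbia (57.6 ± 8.98 CPM per kilobase) was far above Nfkbie (10.1 ± 1.09), Tnfaip3 (9.53 ± 1.75), Nfkbib (4.17 ± 1.03) and Nfkbiz (2.70 ± 0.703). Over both groups in parental cells, Nfkb2 alone was above Nfkbia, and the range of Tnfaip3 overlapped those of Nfkbie and Relb.

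**Figure D1:**
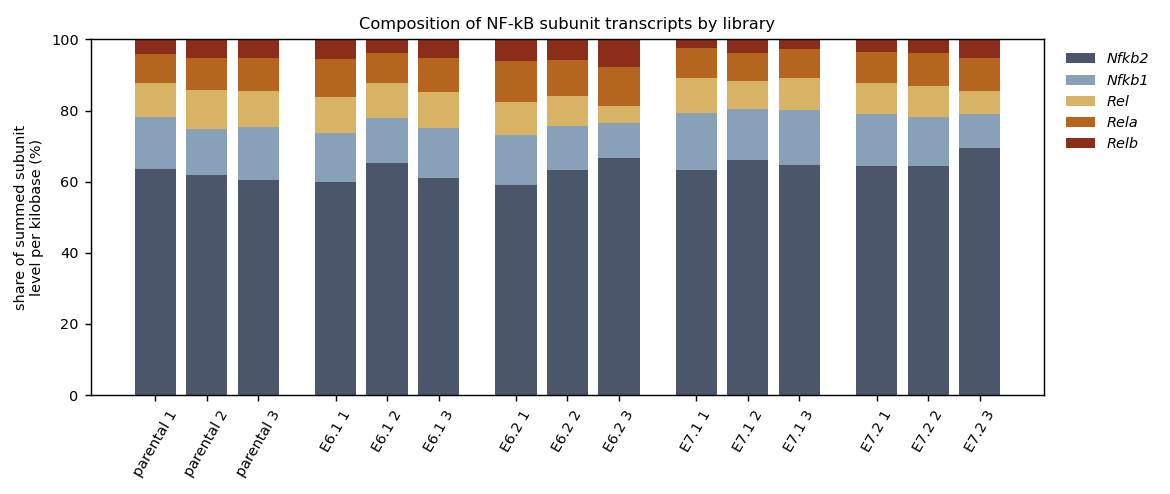
Share of each subunit in the summed subunit level per kilobase of exon (percent, vertical axis) in each of the 15 libraries (horizontal axis, line and replicate number). Nfkb2 takes between 59.2% and 69.5% of every bar, and the Relb segment is at most 3.84% in the E7.1 libraries.

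In none of the 4 clones did any of the 10 genes differ from parental cells at an adjusted p under 0.05 by edgeR's quasi-likelihood test, adjusted by Benjamini and Hochberg's method over all 13904 genes. The share of all genes called was 1.22% for E7.1, 1.17% for E6.2, 0.324% for E6.1 and 0.295% for E7.2, so few of any genes were called. At an unadjusted p under 0.05 the counts were 4, 2, 0 and 0 of 10 in that order, beside 19.95%, 13.1%, 6.71% and 13.3% of all genes. DESeq2 called 1 gene, Nfkbia in E7.1, and edgeR's likelihood ratio test called 0. In the same order of clones, DESeq2 called 8.32%, 2.86%, 1.11% and 1.83% of all genes, and the likelihood ratio test called 5.38%, 2.24%, 0.899% and 1.13%. The fitted log2 fold changes lay between -0.81 and 0.72 for E7.1, between -0.48 and 0.63 for E6.2, between -0.34 and 0.15 for E6.1, and between -0.32 and 0.44 for E7.2. In the same order, the median over the 10 genes was -0.26, 0.12, 0.01 and 0.07, beside -0.02, 0.06, -0.00081 and 0.0043 over all genes.

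When the 2 divergent libraries were left out, the spread that all lines share was smaller and 4 of the 10 genes were called in E7.1, against 15.9% of all genes. Of these, Nfkbia, Relb and Tnfaip3 were lower and Nfkbib was higher than in parental cells. In the other clones the count stayed at 0 of 10, against 2.32% (E6.2), 1.07% (E6.1) and 1.8% (E7.2) of all genes. At an unadjusted p under 0.05 there were 2 genes in E6.2, 1 in E6.1 and 1 in E7.2, beside 21.2%, 13.7% and 20.3% of all genes. The E7.1 and parental libraries are the same in both fits, and the E7.1 log2 fold changes of these 4 genes differ between the fits by 0.01 at most. What moved was the error: for Nfkbia it went from 0.18 to 0.13 and for Relb from 0.30 to 0.22.

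**Figure D2:**
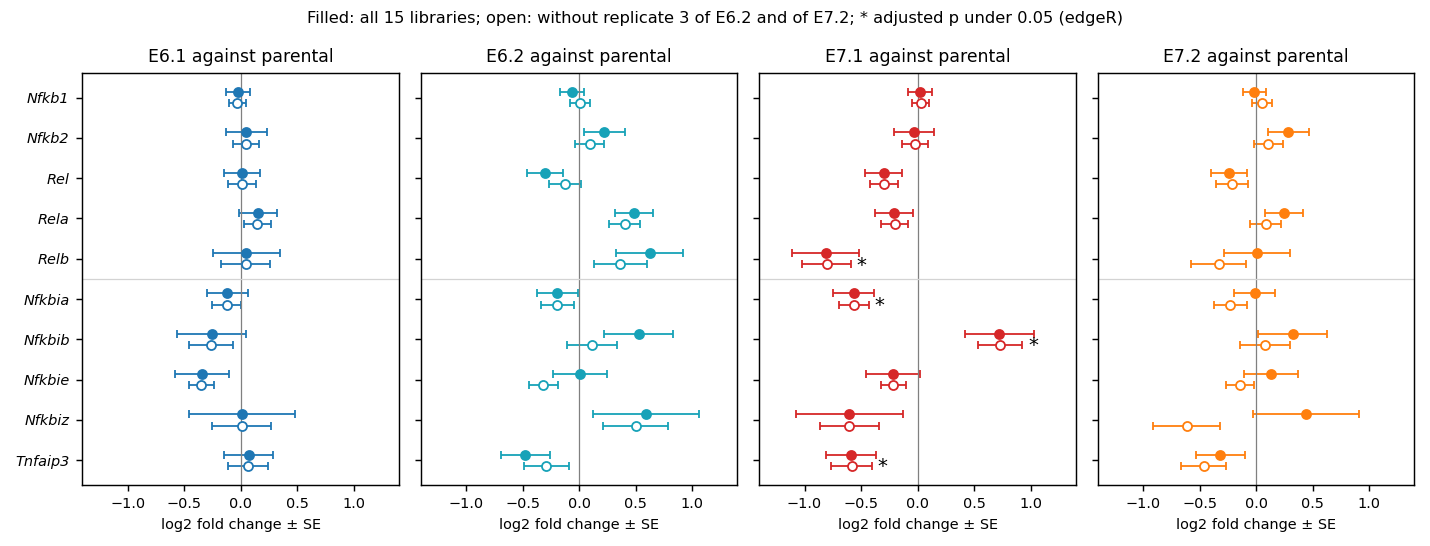
Log2 fold change of each gene against parental cells (horizontal axis, bars are the SE from edgeR) in the 4 clones, subunits above the line and inhibitors below it. Filled points use all 15 libraries, with no gene called, and open points leave out replicate 3 of both E6.2 and E7.2, with Relb, Nfkbia, Nfkbib and Tnfaip3 called in E7.1 (asterisks).

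Tested for any difference among the 5 lines, 0 of the 10 genes passed (edgeR's quasi-likelihood test, smallest adjusted p = 0.0672 for Relb), against 6.28% of all genes, and 5 had an unadjusted p under 0.05, beside 27.8% of all genes. DESeq2 called 3, Relb, Rela and Nfkbib, against 22.5% of all genes, and edgeR's likelihood ratio test called Relb and Rela, against 17.6%. In the fit without the 2 divergent libraries, 5 were called, Nfkbib, Relb, Rela, Nfkbiz and Nfkbia, with adjusted p between 0.0193 and 0.0456 by edgeR's quasi-likelihood test, against 30.1% of all genes. Leaving out replicate 3 of E7.2 alone gave 3, Relb, Rela and Nfkbiz, against 12.4%.

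The difference between clones that passed the test with all libraries was between E7.1 and E6.2. Relb and Rela were both lower in E7.1 than in E6.2. Rel, the other partner of p50, did not move with them (log2 fold change 0.0033, SE 0.16, adjusted p = 0.991 by edgeR's quasi-likelihood test). Relb and Rela were 2 of 10 genes, against 16.9% of all genes called in that comparison, a share close to that of all genes. Both calls were lost when replicate 1 of E7.1 was left out (log2 fold change -1.27 and adjusted p = 0.0533 for Relb, -0.71 and 0.0578 for Rela, by edgeR's quasi-likelihood test), where 4.06% of all genes were called. DESeq2 called Relb, Rela and Nfkbiz, against 24.1% of all genes, the fit of these 6 libraries alone called the same genes, against 5.42%, and the likelihood ratio test called Relb and Rela, against 20.9%. With the 2 divergent libraries left out, 4 of 10 were called between E7.1 and E6.2, Relb, Rela and Nfkbiz lower and Nfkbib higher, against 35.5% of all genes.

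Relb (ENSMUSG00000002983, chr7:19606217-19629438, minus strand, GRCm38) spanned a 4.86-fold range over the libraries. Parental cells had 22.7, 35.5 and 30.0 CPM, and E6.1 had 35.9, 24.4 and 31.0 CPM. E6.2 had 35.4, 39.4 and 61.3 CPM and E7.1 had 12.6, 22.0 and 15.5 CPM. E7.2 had 20.9, 25.1 and 42.8 CPM. Every E7.1 library was below every library of parental cells, E6.1 and E6.2, and the E7.1 and E7.2 ranges overlapped. In E7.1 against E6.2 the log2 fold change was -1.44 (SE 0.30, adjusted p = 0.00969 by edgeR's quasi-likelihood test), and without the 2 divergent libraries it was -1.17 (SE 0.24, adjusted p = 0.00414). Libraries were apart in this way for 31.8% of all genes in that comparison, for 32.0% between E7.1 and parental cells, and for 43.2% between E7.1 and E6.1. Against parental cells the E7.1 value was -0.81 (SE 0.30, adjusted p = 0.146), and -0.81 (SE 0.22, adjusted p = 0.0281) without the divergent ones, both by the same test. In E6.2 against parental cells it was 0.63 (SE 0.30, adjusted p = 0.386) by that test and 0.37 without the 2 divergent libraries.

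Rela (ENSMUSG00000024927, chr19:5637483-5648130, plus strand), which codes for the p65 subunit of the canonical dimer, had 31.8, 42.4 and 37.2 CPM in parental cells and 47.1, 37.9 and 39.0 CPM in E6.1. E6.2 had 46.6, 50.3 and 58.9 CPM, and E7.1 had 32.7, 31.2 and 32.5 CPM. E7.2 had 35.6, 42.1 and 54.5 CPM. The E6.2 libraries were all above the parental and E7.1 libraries, while the E7.1 libraries lay close together around the lowest parental library. E6.2 and parental libraries were apart for 14.7% of all genes. The log2 fold change of E7.1 against E6.2 was -0.69 (SE 0.17, adjusted p = 0.0162 by edgeR's quasi-likelihood test), and -0.61 (SE 0.14, adjusted p = 0.00598) without the 2 divergent libraries. Against parental cells, E6.2 was at 0.48 (SE 0.17, unadjusted p = 0.0109, adjusted p = 0.237 by edgeR over all genes), and at 0.40 (SE 0.14, adjusted p = 0.134 by edgeR) without the 2 divergent libraries, so the non-overlap of the libraries did not pass the test over all genes.

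Nfkb1 (ENSMUSG00000028163, chr3:135584655-135691547, minus strand) varied least. It lay between 92.8 and 108.8 CPM in all 15 libraries, a 1.17-fold range, and its log2 fold change against parental cells was between -0.06 and 0.02 in the 4 clones with an SE of 0.10. Nfkb2 (ENSMUSG00000025225, chr19:46304737-46312090, plus strand) lay between 292 and 485 CPM, with the 2 divergent libraries at the top (440.2 and 485 CPM). Its log2 fold change was between -0.03 and 0.29 (SE 0.18) in the 4 clones, and between -0.03 and 0.11 without the 2 divergent libraries. Rel (ENSMUSG00000020275, chr11:23741514-23770970, minus strand), the c-Rel subunit that is prominent in lymphoid cells, lay between 27.8 and 53.7 CPM, with log2 fold changes of 0.01 in E6.1, -0.24 in E7.2, and -0.30 in both E6.2 and E7.1 (SE 0.16 each). Without the 2 divergent libraries the Rel value was -0.12 in E6.2 (SE 0.14), -0.21 in E7.2 and -0.30 in E7.1 (SE 0.12). For these 3 subunits the libraries of every clone overlapped those of parental cells.

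Nfkbia (ENSMUSG00000021025, chr12:55489411-55492647, minus strand), which codes for IkB alpha, the inhibitor resynthesized soon after NF-kB is freed, had 74.4, 98.8 and 99.2 CPM in parental cells. E6.1 had 89.8, 75.2 and 85.9 CPM and E6.2 had 67.0, 90.0 and 80.9 CPM. E7.1 had 60.1, 65.8 and 58.1 CPM and E7.2 had 77.2, 75.2 and 118 CPM. All E7.1 libraries were below all libraries of the other 4 lines, and the other clones overlapped parental cells. In E7.1 against parental cells the log2 fold change was -0.57 (SE 0.18, adjusted p = 0.105 by edgeR's quasi-likelihood test). Without the 2 divergent libraries it was -0.56 (SE 0.13, adjusted p = 0.0168). Leaving out replicate 3 of E7.2 alone gave an adjusted p of 0.035 and leaving out replicate 1 of the parental line gave 0.0427, both by edgeR, with 4.65% and 7.11% of all genes called. E7.1 and parental libraries were apart for 32.0% of all genes, and for 3 of these 10 genes, Nfkbia, Relb and Nfkbib. E7.1 libraries were apart from those of E6.1, E6.2 and E7.2 for 43.2%, 31.8% and 25.1% of all genes.

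Nfkbib (ENSMUSG00000030595, chr7:28758251-28767512, minus strand), the IkB beta gene, had 11.6, 7.93 and 7.60 CPM in parental cells and 7.58, 8.90 and 6.25 CPM in E6.1. E6.2 had 8.31, 10.98 and 19.8 CPM and E7.1 had 16.0, 15.4 and 13.4 CPM. E7.2 had 8.29, 10.5 and 15.2 CPM. All E7.1 libraries were above the parental and E6.1 libraries, opposite to Nfkbia in the same cells. Libraries were apart for 32.0% of all genes between E7.1 and parental cells, and for 43.2% between E7.1 and E6.1. The log2 fold change of E7.1 against parental cells was 0.72 (SE 0.30, adjusted p = 0.202 by edgeR's quasi-likelihood test), and 0.73 (SE 0.20, adjusted p = 0.0281) without the 2 divergent libraries. Counting ignored strand, and the exons of Nfkbib share 42 bases with Sirt2 and 311 bases, 14.3% of its length, with Ccer2 on the opposite strand. Ccer2 was at most at 0.0801 CPM and Sirt2 between 21.6 and 56.4 CPM.

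Tnfaip3 (ENSMUSG00000019850, chr10:19000910-19015657, minus strand), the ubiquitin-editing inhibitor, had 54.7, 79.0 and 72.8 CPM in parental cells and 80.2, 63.2 and 73.7 CPM in E6.1. E6.2 had 54.7, 56.3 and 37.5 CPM and E7.1 had 33.7, 56.6 and 46.8 CPM. E7.2 had 48.1, 50.1 and 67.7 CPM. All clones reached into the parental range, E7.2 only through its divergent library. The log2 fold change against parental cells was -0.48 in E6.2 (SE 0.22, adjusted p = 0.372 by edgeR) and -0.59 in E7.1 (SE 0.22, adjusted p = 0.15 by edgeR). Without the 2 divergent libraries the E7.1 value was -0.58 (SE 0.18, adjusted p = 0.0455 by edgeR) and the E6.2 value was -0.29 (SE 0.20, adjusted p = 0.42 by edgeR).

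Nfkbiz (ENSMUSG00000035356, chr16:55811375-55838899, minus strand) codes for IkB zeta, a nuclear IkB protein that can also assist NF-kB at some promoters, and had the widest range of the 10 genes, 5.14-fold. Parental cells had 9.59, 16.3 and 14.7 CPM and E6.1 had 17.6, 8.44 and 15.01 CPM. E6.2 had 19.2, 18.5 and 23.4 CPM and E7.1 had 11.2, 8.12 and 7.34 CPM. E7.2 had 8.87 and 8.58 CPM in replicates 1 and 2 and 37.8 CPM in replicate 3. That one library set the sign of the E7.2 value, which was 0.44 (SE 0.47) against parental cells with it and -0.61 (SE 0.30) without the 2 divergent libraries, neither of them called. E6.2 was above every parental and E7.1 library, but was not called against parental cells (log2 fold change 0.59, SE 0.47, adjusted p = 0.607 by edgeR). E6.2 and parental libraries were apart for 14.7% of all genes. E7.1 against E6.2 was -1.20 (SE 0.48, adjusted p = 0.0948 by edgeR), and -1.10 (SE 0.29, adjusted p = 0.0117) without the 2 divergent libraries. DESeq2 (adjusted p = 0.0426) and edgeR on these 6 libraries alone (adjusted p = 0.0291) also called it. Nfkbie (ENSMUSG00000023947, chr17:45555716-45563169, plus strand), the IkB epsilon gene, lay between 18.7 and 37.0 CPM, and its values of 35.1 and 37.0 CPM were again in the 2 divergent libraries. In E6.1 its 3 libraries (19.6, 19.8 and 18.7 CPM) were below the parental ones (24.5, 22.0 and 27.3 CPM), with a log2 fold change of -0.34 (SE 0.24, adjusted p = 0.917 by edgeR), and -0.35 (SE 0.11, adjusted p = 0.179 by edgeR) without the 2 divergent libraries. E6.1 and parental libraries were apart for 22.5% of all genes.

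**Figure D3:**
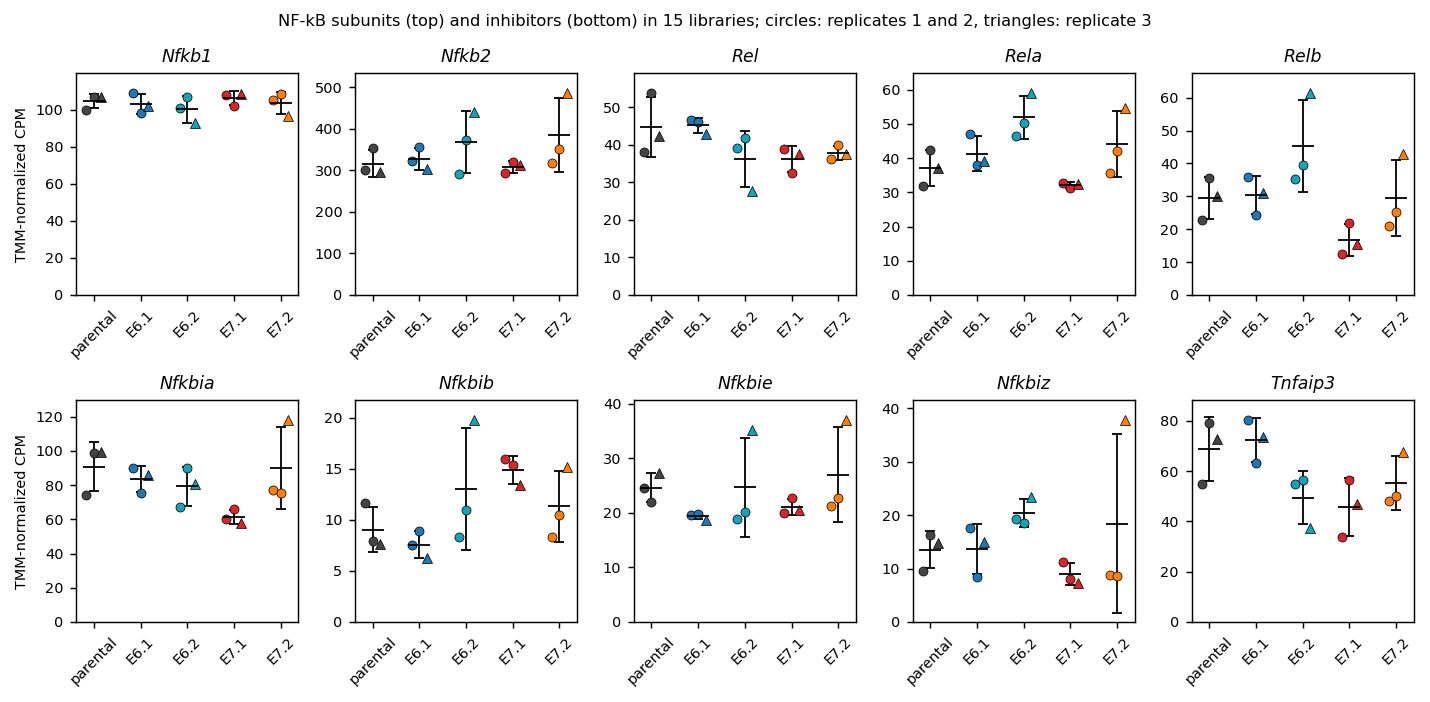
TMM-normalized CPM (vertical axes, from 0) of the 5 subunits (top) and 5 inhibitors (bottom) in the 3 libraries of each line, with the mean and SD in black. Triangles are replicate 3, which for Relb, Nfkbib, Nfkbie and Nfkbiz is the highest library of both E6.2 and E7.2, and the Nfkb1 values stay between 92.8 and 108.8 CPM.

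The same libraries moved with several of these genes. Replicate 3 of E6.2 was the highest of its line for 6 of the 10 genes, and replicate 3 of E7.2 for 8 of them, where 40.8% and 45.3% of all genes had their highest value in those libraries. Both held the highest value for 6 genes, Nfkb2, Rela, Relb, Nfkbib, Nfkbie and Nfkbiz, and for 27.3% of all genes. The largest ratio of replicate 3 to the mean of replicates 1 and 2 was 4.32, for Nfkbiz in E7.2, followed by 2.05 for Nfkbib in E6.2 and 1.86 for Relb in E7.2. Rel and Tnfaip3 were instead low in replicate 3 of E6.2, at 0.688 and 0.675 of the mean of the other libraries. In parental cells, E6.1 and E7.1 this ratio was between 0.758 and 1.17 for all 10 genes. The part of these libraries' low TMM factors and of the mitochondrial share of replicate 3 of E7.2 in these levels was not tested.

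**Figure D4:**
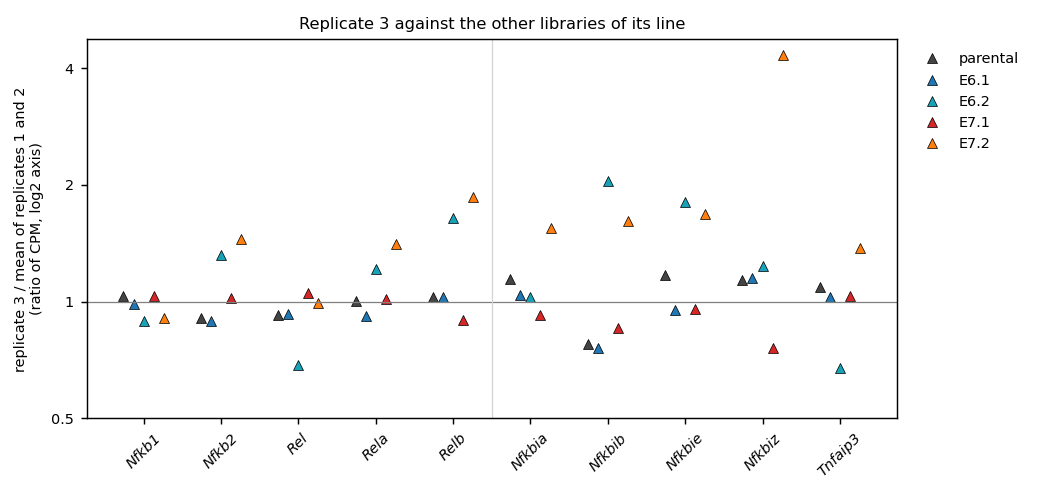
Ratio of replicate 3 to the mean of replicates 1 and 2 of the same line (CPM, log2 axis) for each gene, subunits left of the line and inhibitors right of it. In E6.2 and E7.2 the ratios reach 2.05 and 4.32, and in the other lines they stay between 0.758 and 1.17.

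The other pairs of clones gave few calls. For E7.1 against E6.1, 0 of 10 genes were called by edgeR's quasi-likelihood test, against 3.24% of all genes, although 5 had an unadjusted p under 0.05, beside 22.3% of all genes. Both DESeq2 and the likelihood ratio test called Nfkbib, against 10.8% and 7.65% of all genes. The fit of these 6 libraries alone called 5, Relb, Rela, Nfkbia and Tnfaip3 lower and Nfkbib higher in E7.1, against 21.5%. The Nfkbib log2 fold change was 0.98 (SE 0.31, adjusted p = 0.084 by edgeR). With the 2 divergent libraries left out, 4 were called in this pair, Relb, Tnfaip3 and Nfkbia lower and Nfkbib higher in E7.1, against 19.2% of all genes. For E6.2 against E6.1 the count was 0, against 1.24% of all genes. At an unadjusted p under 0.05 there were 2, beside 12.9% of all genes. For E7.2 against E6.1 the count was 0, against 0.352% of all genes. At an unadjusted p under 0.05 there were 0, beside 11.6% of all genes. For E7.2 against E6.2 the count was 0, against 2.24% of all genes. At an unadjusted p under 0.05 there were 0, beside 19.1% of all genes. Without the 2 divergent libraries 1 was called in this pair, Nfkbiz, lower in E7.2 (-1.11, SE 0.32, adjusted p = 0.0348 by edgeR), against 17.4%. For E7.2 against E7.1, which carry a mutation in the same exon, the count was 0, against 0.59% of all genes. At an unadjusted p under 0.05 there were 4, beside 13.3% of all genes. In each of these last 4 pairs DESeq2 and the likelihood ratio test also called 0.

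The pathway around these genes gave as few calls against parental cells. Of 28 kinases, adaptors and ligases that carry the signal to NF-kB, 0 were called in each of the 4 clones by edgeR's quasi-likelihood test. This stands against 0.295% to 1.22% of all genes. At an unadjusted p under 0.05 there were 7 (E7.1), 6 (E6.2), 4 (E7.2) and 3 (E6.1), beside 19.95%, 13.1%, 13.3% and 6.71% of all genes. DESeq2 called 3 of them in E7.1, Traf5, Tab2 and Birc3, all lower, against 8.32% of all genes. The likelihood ratio test called Traf5 in E7.1, against 5.38% of all genes. Their median log2 fold change was between -0.05 and 0.03 in the 4 clones. Of 14 other inhibitors of the pathway, 0 were called in each clone by the quasi-likelihood test, against the same 0.295% to 1.22% of all genes. At an unadjusted p under 0.05 there were 2 in E7.1 and E6.2, 1 in E7.2 and 0 in E6.1, beside the same shares of all genes as above. DESeq2 and the likelihood ratio test each called Tax1bp1, lower in E7.1, where they called 8.32% and 5.38% of all genes. Chuk, Ikbkb, Ikbkg, Map3k14, Malt1, Traf3, Cyld, Bcl3 and Nfkbid were looked at by name, and 0 of their 36 comparisons with parental cells were called (smallest adjusted p = 0.122 by edgeR, 5 with an unadjusted p under 0.05, log2 fold changes between -0.56 and 2.18). The largest value was that of Bcl3, a nuclear IkB protein that binds p50 and p52, in E6.2, where its level was 2.56 ± 2.74 CPM against 0.566 ± 0.124 CPM in parental cells (SD, n = 3 each; adjusted p = 0.285 by edgeR). Without the 2 divergent libraries the Bcl3 log2 fold change was 0.81 (SE 0.46).

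Of 43 known NF-kB target genes, 35 passed the filter, and those called were all lower than in parental cells. In E6.2 these were 2 of 35, against 1.17% of all genes. They were Irf4, a regulator of plasma cell differentiation (14.2 ± 3.73 against 44.2 ± 5.98 CPM, SD, n = 3 each, log2 fold change -1.64, adjusted p = 0.00333 by edgeR), and Ebi3, a cytokine subunit (1.53 ± 0.368 against 4.25 ± 0.21 CPM, log2 fold change -1.48, adjusted p = 0.0132). In E7.1, where 1.22% of all genes were called, the activation marker Cd69 was lower, at 4.69 ± 1.37 against 13.5 ± 2.69 CPM (log2 fold change -1.53, adjusted p = 0.0387 by edgeR). In E7.2, where 0.295% of all genes were called, Cflar, which codes for the caspase inhibitor cFLIP, was lower, at 33.9 ± 1.57 against 72.2 ± 3.17 CPM (log2 fold change -1.09, adjusted p = 0.0225 by edgeR). In E6.1 the count was 0 of 35 by the quasi-likelihood test, against 0.324% of all genes, with 4 at an unadjusted p under 0.05, beside 6.71% of all genes. DESeq2 and the likelihood ratio test called the same targets as each other, all lower, 5 in E6.2 (Cflar, Il10, Bcl2a1d, Irf4 and Ebi3), 5 in E7.1 (Cflar, Bcl2, Cd69, Cd80 and Fas), 2 in E7.2 (Cflar and Fas) and 1 in E6.1 (Cflar). All genes called by DESeq2 were 2.86%, 8.32%, 1.83% and 1.11% in that order, and those called by the likelihood ratio test 2.24%, 5.38%, 1.13% and 0.899%. Cflar was thus called in all 4 clones by these tests, and its log2 fold change by the quasi-likelihood fit was -1.09 in E7.2 and between -0.78 (E6.1) and -0.66 (E7.1) in the other clones. The Cflar call in E7.2 was lost without any one of the 6 E7.2 and parental libraries (log2 fold change between -1.12 and -1.05, adjusted p between 0.0734 and 0.119 by edgeR), that of Cd69 without replicates 2 or 3 of the parental line, 1 or 3 of E7.1 or 3 of E6.1 (0.0637 to 0.208), and that of Ebi3 without replicate 1 of the parental line (0.0731) and in the 6 libraries compared alone (0.247). With replicate number added to the fit, the Cd69 call was lost too (log2 fold change -1.51, adjusted p = 0.0507 by edgeR). Without the 2 divergent libraries the 4 target calls were kept, with log2 fold changes of -1.41 (Irf4), -1.27 (Ebi3), -1.52 (Cd69) and -1.07 (Cflar).

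In the fit without the 2 divergent libraries, the counts in E7.1 were 11 of 35 targets, 6 of 28 kinases and adaptors and 3 of 14 other inhibitors, against 15.9% of all genes. The 11 targets and the 6 kinases and adaptors were lower. The median log2 fold change of the targets in E7.1 was -0.28 in that fit, where that of all genes was -0.02. In the other 3 clones the targets gave 0 (E6.1), 3 (E6.2) and 1 (E7.2) calls, against 1.07%, 2.32% and 1.8% of all genes.

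Relb had the smallest p over the 5 lines, and the genes whose levels followed it most closely were looked for among all those tested. Likeness was the root mean square difference of log2 CPM over the 15 libraries, each gene centred on its mean, and Relb's own root mean square deviation was 0.56. The closest were Khnyn (0.16), Tbc1d17 (0.17), Krtcap2 (0.18), Zhx2 (0.18) and Ets2 (0.18). Khnyn was at 34.0 ± 6.07 CPM in E7.1, 63.6 ± 18.4 in parental cells and 90.9 ± 23.1 in E6.2 (SD, n = 3 each). It was picked for its likeness to Relb in these same libraries, so an order of lines like that of Relb follows from the choice. The points share their libraries, so the 2 divergent libraries weigh in this likeness as they do in Relb.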

How the data were processed

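RNA from 5 lines, 3 libraries each, was extracted with a Qiagen RNeasy Mini kit. The authors deposited raw counts, the number of read pairs assigned to each gene. Per the file headers and labels they aligned reads to mm10 with HISAT. The counting tool was featureCounts 1.5.0, run against GRCm38 genes plus spike-ins, ignoring strand and leaving out pairs with several alignments or overlapping several genes, which lowers the counts of genes with overlapping exons or close copies. The 92 spike-ins had a total count of 0. Of 41388 genes, 40254 were matched to a symbol.

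Counts were tested in R 4.3.3 with edgeR 4.0.16 (filterByExpr, TMM, glmQLFit and glmQLFTest with defaults) in 1 fit of all 15 libraries with line as the factor. Within each comparison, Benjamini-Hochberg adjustment ran over 13904 genes, and an adjusted p below 0.05 made a call. Levels are TMM-normalized CPM, per kilobase where genes are compared. Alternatives were DESeq2 1.42.0, its size factors, no filter, edgeR's likelihood ratio test, another quasi-likelihood setting, a replicate block, the compared libraries alone, and leaving out libraries. The scripts were tested on simulated data. The 10 genes, the pathway lists and the tests were chosen with earlier results of these data known. The 10 genes, Foxp1, a set of 9 further pathway genes and each list gene called against parental cells are named, with the 5 genes most like the member of smallest p. Some genes of the lists are not reported here. Other list genes named were chosen after their values were seen.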

Additional observations from a re-analysis of the deposited data

Results flagged for a closer look

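The difference between E7.1 and E6.2 was tested directly, and 2 of the 10 genes differed between these clones, where 16.9% of all genes did. Relb was lower in E7.1 by a log2 difference of -1.44, and Rela by -0.69. In both, all 3 E7.1 libraries were below all 3 E6.2 libraries, and libraries were apart for 31.8% of all genes.
Neither difference was called when replicate 1 of E7.1 was left out (log2 differences of -1.27 and -0.71, adjusted p = 0.0533 and 0.0578 by edgeR's quasi-likelihood test).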

How the results depend on the processing

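The counts of genes called stayed at 0 under each alternative for E6.1, E6.2 and E7.2 against parental cells and for E6.2 against E6.1, E7.2 against E6.1 and E7.2 against E7.1. For E7.1 against parental cells DESeq2's test gave 1 (8.32% of all genes called), and leaving out 1 library gave 0 to 1. It was 1 without replicate 1 of the parental line (7.11% of all genes) or replicate 3 of E7.2 (4.65%). For any difference among the 5 lines the count was 1 with no filter, where 1617 genes in all were called. It was 3 with DESeq2's test (22.5% of all genes), 2 with the likelihood ratio test (17.6%), and 0 to 3 with 1 library left out. The 3 came without replicate 3 of E7.2, where 12.4% of all genes were called. For E7.1 against E6.1 it was 1 with DESeq2's test and with the likelihood ratio test (10.8% and 7.65% of all genes), 5 in the 6 libraries compared alone (21.5%), and 0 to 1 with 1 library left out. The 1 in that last case came without replicate 3 of E6.2, where 1266 genes in all were called. For E7.1 against E6.2 it was 3 with DESeq2's test and in the 6 libraries alone (24.1% and 5.42% of all genes), and 0 to 3 with 1 library left out. The 0 came without replicate 1 of E7.1, where 4.06% of all genes were called. For E7.2 against E6.2 it was 0 to 1 with 1 library left out, and the 1 came without replicate 3 of E7.2, where 834 genes in all were called. Without the replicate 3 libraries of E6.2 and E7.2, added after seeing the data, these 5 counts were 4, 5, 4, 4 and 1. In that order, 15.9%, 30.1%, 19.2%, 35.5% and 17.4% of all genes were called.

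Of 1380 alternative values for single genes, 1286 kept direction and side of the threshold, 25 lost and 12 gained the call, and 57 changed sign, of which 39 came from leaving out 1 library. With all libraries, the log2 fold changes that changed sign were between -0.23 and 0.44, none of them called. Without the replicate 3 libraries of E6.2 and E7.2 they were 0.0096 (Nfkb1) and -0.32 (Nfkbie) in E6.2, and 0.0542 (Nfkb1), -0.14 (Nfkbie), -0.61 (Nfkbiz) and -0.33 (Relb) in E7.2, each against parental cells, and 0.10 (Nfkbie) and -0.17 (Rel) in E7.1 against E6.2. With DESeq2's size factors and DESeq2's test they were 0.0041 and 0.0043 (Nfkb1, E7.2), 0.0077 and 0.0076 (Nfkbia, E7.2), and -0.0055 and -0.0053 (Rel, E7.1 against E6.2). With no filter Nfkbie in E6.2 was -0.0116. Leaving out 1 library gave, in E6.1, -0.0634 to 0.0092 (Nfkb1), -0.014 to 0.14 (Nfkb2), -0.0926 to 0.17 (Rel), -0.11 to 0.21 (Relb), -0.21 to 0.27 (Nfkbiz) and -0.0724 to 0.18 (Tnfaip3). In E6.2 it gave -0.34 to 0.16 (Nfkbie), and in E7.1 -0.0785 to 0.0551 (Nfkb2). In E7.2 it gave -0.0507 to 0.0446 (Nfkb1), -0.34 to 0.21 (Relb), -0.24 to 0.10 (Nfkbia), -0.15 to 0.28 (Nfkbie) and -0.62 to 0.78 (Nfkbiz). In E7.1 against E6.2 it gave -0.16 to 0.12 (Rel), -0.0115 to 0.63 (Nfkbib), -0.36 to 0.12 (Nfkbie) and -0.30 to 0.0635 (Tnfaip3).

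Averaged over all pairs of lines, libraries of the same replicate number deviated little alike. Deviations from the line means correlated at a mean of 0.0531 for the same number (from -0.124 to 0.426) and -0.0249 for other numbers. The 0.426 was that of the 2 divergent libraries, both replicate 3. Between E6.2 and E7.2, replicates 1 correlated at 0.174 and replicates 2 at 0.276. Across numbers, replicate 2 of E6.2 correlated at 0.311 with replicate 1 of E7.2, and replicate 1 of E6.2 at 0.170 with replicate 2 of E7.2. What replicate 3 of these clones had in common was not tested. With the replicate block the counts were the same, 2 for E7.1 against E6.2 and 0 elsewhere, Cd69 in E7.1 was no longer called, and small log2 fold changes moved to -0.0299 (Nfkbie, E6.2), -0.0273 (Nfkbiz, E6.1) and -0.0237 (Relb, E7.2).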
